A study of Mus musculus with 8 samples.

Results

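The genes described here are 10 tissue inhibitors of metalloproteinases (TIMPs) and zinc-dependent proteases, chosen by gene symbol from the 55213 symbols counted in 8 mouse retinas. All 10 symbols were found: the inhibitors Timp1, Timp2, Timp3 and Timp4, the gelatinases Mmp2 and Mmp9, the membrane-type metalloproteinases Mmp14 and Mmp15, and the membrane sheddases Adam10 and Adam17. Each library holds RNA of the whole retina of 1 eye of a germ-free (GF) adult male C57B1/6 mouse. The 8 mice were different animals and are called here by the number in the library's name. The 4 GF-ND mice, numbered 9, 10, 11 and 12, ate a normal diet over the same weeks. The 4 GF-HFD mice, numbered 13, 15, 16 and 19, ate a high-fat diet with 23% saturated fat for 8 weeks, between 7 and 15 weeks of age. All 8 mice lacked gut microbes, so the comparison asks how the diet relates to retinal RNA in mice without a microbiome, and nothing here speaks of colonised mice.

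Matrix metalloproteinases cut collagens, laminins and other proteins of the extracellular matrix, and most are made as inactive proenzymes. TIMPs bind the active site of the proteases and block it. Adam10 and Adam17 are anchored in the membrane and release the outer parts of other membrane proteins, a process called shedding. In the eye TIMP3 is known as a component of Bruch's membrane, the matrix under the retinal pigment epithelium, and mutations in its gene cause Sorsby fundus dystrophy.

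The libraries held 39258006 to 44357518 counts. Levels are given as CPM, a count relative to the library size after TMM scaling. A log2 fold change above 0 means a higher level in GF-HFD retinas, and its p is that of edgeR's quasi-likelihood test. The standard error (SE) was derived from that test, as the size of the log2 fold change over the square root of F. The 95% interval was built from this SE with a t quantile. Rod markers were present in every library, with a summed level of 35673 to 59850 CPM in GF-ND and 60918 to 78601 CPM in GF-HFD retinas, over all 10 rod genes, so that the rod sums of the diets did not overlap. RNA of tissue next to the retina was present as well, in unequal amounts. All 10 pigment epithelium markers were detected, with a summed level of 1563 CPM in GF-ND mouse 11, 646.9 in GF-HFD mouse 16, 448.4 in GF-HFD mouse 19 and 295.3 in GF-HFD mouse 15, against 40.3 to 116.7 CPM in the other 4 mice. The 12 lens markers summed to 65318 CPM in GF-ND mouse 11 and 11717 CPM in GF-HFD mouse 19, and to 168.1 to 1594 CPM elsewhere. The 10 fibroblast markers summed to 237.7, 253.1 and 321.8 CPM in mice 11, 16 and 19 and to 31.9 to 98.7 CPM in the other 5. The 8 skeletal muscle markers summed to 40.6 CPM in GF-HFD mouse 13 and to 4.63 to 7.16 CPM elsewhere. In whole retina, a change in the number of cells of a type and a change in RNA per cell cannot be told apart.

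In the genome, 3 of the 4 inhibitors lie inside a synapsin gene on the opposite strand, a position that the choice of symbols did not use. Synapsins coat the synaptic vesicles of neurons. Timp1 (chromosome X, 20870166 to 20874735 on GRCm38) lies within 1 intron of Syn1 and shares no exon base with it. Timp3 (chromosome 10, 86300372 to 86349506) lies within Syn3 and shares 1733 exon bases with it, and Timp4 (chromosome 6, 115241892 to 115252205) lies within Syn2 and shares 90 exon bases. Timp2 (chromosome 11, 118301069 to 118355740) lies in no synapsin gene. Adam17 (chromosome 12, 21323509 to 21373632) shares 311 exon bases at its 3′ end with Iah1 on the other strand. The strand setting of the counting is not given in the sources used here. Without strand, reads in the shared exon bases cannot be assigned to either gene, while other exon reads are placed by position. Reads of unspliced synapsin RNA on other TIMP exon bases would then be counted for the TIMP. Their number was not tested. The partners themselves had overlapping groups: Syn2 was at 35.2 ± 5.05 CPM in GF-ND and 39.0 ± 2.07 CPM in GF-HFD retinas, Syn3 at 10.6 ± 0.651 and 10.1 ± 0.843 CPM, Syn1 at 96.9 ± 21.3 and 110 ± 14.4 CPM, and Iah1 at 7.17 ± 1.203 and 7.54 ± 1.26 CPM (SD, n = 4 each).

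Upstream sequence is shown for the 3 synapsin-nested inhibitors and for Adam17, because Timp3 varied most between retinas, Timp4 and Adam17 were the genes whose diet groups stood apart, and Timp1 completes the nested set. Each run is taken from the RefSeq promoter window around the gene's start on GRCm38.p6 and stops before the nearest annotated exon, read 5′ to 3′ in the direction of the gene. Capitals mark GGGCGG, the GC box bound by Sp1-type factors, on either strand, so that CCGCCC is the same box read from the other strand.
Timp1 (chrX:20869916-20870165, plus strand): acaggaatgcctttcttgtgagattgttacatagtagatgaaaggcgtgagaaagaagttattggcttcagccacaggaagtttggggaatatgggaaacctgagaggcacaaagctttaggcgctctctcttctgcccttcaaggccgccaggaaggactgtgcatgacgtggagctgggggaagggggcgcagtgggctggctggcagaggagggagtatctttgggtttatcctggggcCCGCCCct
Timp3 (chr10:86300162-86300371, plus strand): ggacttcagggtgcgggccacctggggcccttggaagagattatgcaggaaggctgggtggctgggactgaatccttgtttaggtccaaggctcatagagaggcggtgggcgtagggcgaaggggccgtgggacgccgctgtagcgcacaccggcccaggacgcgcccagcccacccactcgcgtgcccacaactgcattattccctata
Timp4 (chr6:115252206-115252455, minus strand): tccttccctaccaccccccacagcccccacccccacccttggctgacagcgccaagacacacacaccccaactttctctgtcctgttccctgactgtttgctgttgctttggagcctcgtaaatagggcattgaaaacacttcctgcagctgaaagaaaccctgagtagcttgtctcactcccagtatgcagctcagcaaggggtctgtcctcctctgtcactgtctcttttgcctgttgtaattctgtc
Adam17 (chr12:21373633-21373764, minus strand): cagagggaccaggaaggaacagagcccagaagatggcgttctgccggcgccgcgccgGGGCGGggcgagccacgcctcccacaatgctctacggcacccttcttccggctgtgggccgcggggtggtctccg
Over the whole windows, GGGCGG was present in 7 of the 8 genes with a window, Timp4 being without it, and in 35.7% of all 32851 windows. The Timp3 window holds it beyond the run shown, where the annotated exon begins. TGANTCA, the AP-1 site, and TATAAA were each found in 0 of the 8 windows, and in 7.81% and 13.6% of all windows. CACGTG, an E-box, was found in the Adam10 window alone, and in 7.15% of all windows. No window was given for Mmp2 and Mmp9. These matches describe letters in the window and say nothing of binding.

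The inhibitors spanned the whole range of levels, from the most to the least abundant of the 10. Levels of different genes were compared as CPM per kilobase of exon. Timp2 was highest at a mean of 26.5 CPM per kb over the 8 retinas, above Adam10 (16.1) in all 8. Adam10 and Timp3 (15.0) did not keep their order, Adam10 being higher in 5 of 8. After a gap with no overlap came Mmp9 (4.81), Adam17 (3.84), Mmp2 (2.996), Mmp15 (2.71) and Mmp14 (2.68), each overlapping the next in range. Mmp9 lay above Adam17 in 7 of 8 retinas, Adam17 above Mmp2 in 8, Mmp2 above Mmp15 in 6 and Mmp15 above Mmp14 in 5, so the last 3 are not separated beyond their spread. Timp1 (0.674) and Timp4 (0.114) were lowest, both below Mmp14 in every retina.

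**Figure D1:**
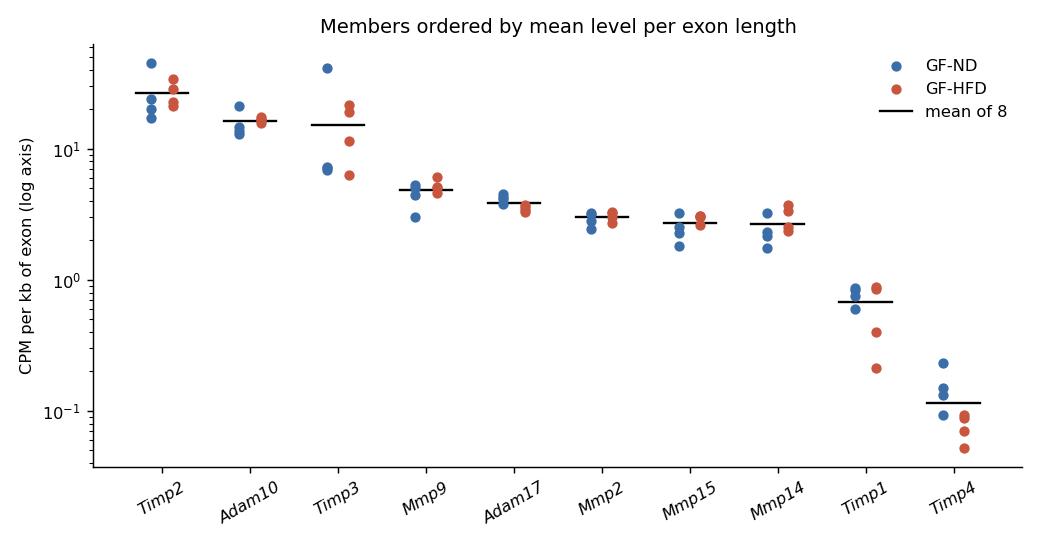
Level of each gene per kilobase of exon (y axis, CPM per kb, log axis) in the 4 GF-ND and 4 GF-HFD retinas, ordered by the mean of 8 (black line). Timp2 leads with 26.5 CPM per kb and Timp4 is lowest with 0.114, and Timp3 spreads from 6.26 to 40.9.

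Timp3 differed between retinas far more than between diets. It was at 58.2, 58.9, 333 and 55.9 CPM in GF-ND mice 9, 10, 11 and 12, and at 51.0, 92.9, 175.3 and 154.6 CPM in GF-HFD mice 13, 15, 16 and 19. The highest and the lowest retina differed 6.53-fold. The groups overlapped, with the highest value in a GF-ND mouse and the lowest in a GF-HFD mouse. GF-HFD mice 15, 16 and 19 lay above GF-ND mice 9, 10 and 12. Of 15280 genes with a mean of at least 1 CPM, 97.4% had a smaller SD of log2 CPM over the 8 retinas. The fitted log2 fold change was -0.09 (SE 0.62, 95% interval -1.47 to 1.28, edgeR adjusted p = 0.977). The mean log2 CPM, which weights the retinas equally, had the other sign, with a difference of 0.25. Without GF-ND mouse 11 the fitted value was 1.04 (SE 0.32, edgeR adjusted p = 0.0979), and without mice 11, 16 and 19 it was 0.33 (SE 0.18, edgeR adjusted p = 0.420).

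Timp3 was highest in the retinas that held the most pigment epithelium RNA. Mice 11, 16, 19 and 15 led in that order on both measures. The correlation of Timp3 with the mean log2 CPM of the 10 pigment epithelium markers was r = 0.963 (two-sided exact permutation p = 0.000149, adjusted p = 0.00595 over 120 relations of 10 genes with 12 marker lists) and rho = 0.905 (exact permutation p = 0.00456, adjusted p = 0.0685). Without the 2 mice farthest from the median of the markers, 11 and 16, r was 0.958. When the marker mean was added as a covariate, an alternative picked with these values in view, the diet coefficient of Timp3 was -0.07 and its SE 0.17, against an SE of 0.62 without the covariate. The part of pigment epithelium RNA in the level of Timp3 was not tested beyond these values.

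Timp2, the inhibitor that also takes part in activating pro-MMP2 at the cell surface, was at 92.9, 78.2, 174.5 and 66.4 CPM in GF-ND mice 9, 10, 11 and 12. The GF-HFD mice 13, 15, 16 and 19 had 82.0, 88.5, 111.5 and 131.6 CPM. Both the highest and the lowest retina were GF-ND, and the GF-HFD values lay between them. The fitted log2 fold change was 0.005 (SE 0.28, 95% interval -0.62 to 0.63, edgeR adjusted p = 0.996), and its sign changed with several settings. Without GF-ND mouse 11 it was 0.39 (SE 0.16, edgeR adjusted p = 0.174).

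Timp1, an inhibitor that glia and other cells make in response to injury and cytokines, was near the floor of detection. It had 22, 31, 31 and 28 counts in GF-ND mice 9, 10, 11 and 12, and 15, 8, 33 and 33 counts in GF-HFD mice 13, 15, 16 and 19. The low values were those of GF-HFD mice 13 and 15, while mice 16 and 19 matched the GF-ND group, so the groups overlapped. The count of 8 has an exact 95% Poisson interval of 3.45 to 15.8, and the lowest GF-ND count of 22 one of 13.8 to 33.3, for counting error only. The fitted log2 fold change was -0.37 (SE 0.44, 95% interval -1.34 to 0.60, edgeR adjusted p = 0.838), and -0.10 (SE 0.37) without mouse 15. Without mice 11, 16 and 19 it was -1.23 (SE 0.52, edgeR adjusted p = 0.293), and with the fibroblast marker mean as a covariate it was -0.91 (SE 0.43, edgeR adjusted p = 0.698).

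Timp4, an inhibitor best known from heart and brain, was the only inhibitor whose diet groups stood apart. It had 57, 36, 33 and 23 counts in GF-ND mice 9, 10, 11 and 12, or 1.37, 0.887, 0.786 and 0.550 CPM. The GF-HFD mice 13, 15, 16 and 19 had 22, 23, 18 and 13 counts, or 0.525, 0.546, 0.412 and 0.307 CPM. Every GF-HFD retina lay below every GF-ND retina, but GF-ND mouse 12 and GF-HFD mouse 15 shared a count of 23 and were apart only after scaling. The log2 fold change was -1.002 (SE 0.36, 95% interval -1.80 to -0.21, n = 4 each), with an unadjusted edgeR p of 0.0185 and an adjusted p of 0.649. The two-sided exact permutation test gave p = 0.0286, the smallest that 4 mice against 4 allow. The unadjusted edgeR p was under 0.05 in 13 of 17 alternatives. The others were without GF-ND mouse 9 (-0.72), without GF-HFD mouse 19 (-0.86), without mice 11, 16 and 19 (-0.79) and with the fibroblast marker mean as a covariate (-0.84). The exact permutation p was 0.0571 without mouse 9, 13, 15, 16 or 19 in turn. Syn2, the gene around it, had a log2 fold change of 0.15 (SE 0.11, edgeR adjusted p = 0.731), with overlapping groups. The part of unspliced Syn2 RNA in the Timp4 counts was not tested. The rod markers, which also stood apart by diet, had r = -0.288 with Timp4 (exact permutation p = 0.494, adjusted p = 0.717) and rho = -0.595 (exact permutation p = 0.132, adjusted p = 0.317), and r was -0.324 without mice 11 and 15. Of the 12 lists the pericyte markers, of which 7 of 8 were fitted higher in GF-HFD retinas, had the strongest relation with Timp4, at r = -0.738 (exact permutation p = 0.0356, adjusted p = 0.153) and rho = -0.833 (exact permutation p = 0.0154, adjusted p = 0.103), and r was -0.769 without mice 9 and 12. The part of rod or pericyte RNA in this difference was not tested further. The highest count, 57, has an exact 95% Poisson interval of 43.2 to 73.9 and the lowest, 13, one of 6.92 to 22.2. At the boundary between the diets, the count of 23 shared by mice 12 and 15 has an interval of 14.6 to 34.5. The count of 22 of mouse 13 has one of 13.8 to 33.3. The boundary retinas are thus not separated beyond counting error.

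**Figure D2:**
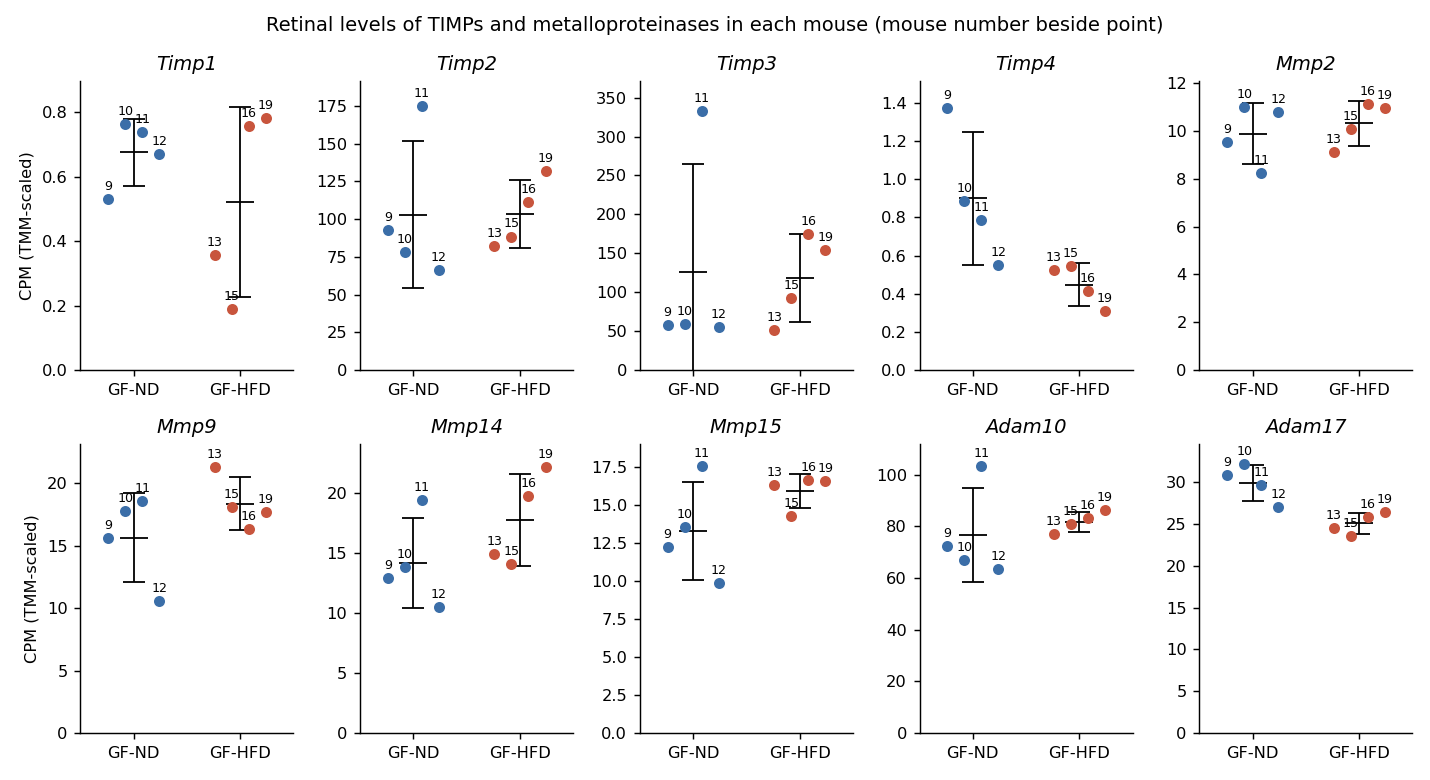
Level (y axes, CPM after TMM scaling) of the 10 genes in each GF-ND and GF-HFD retina, with mouse numbers beside the points and the mean and SD of 4 as bars. The lower end of the Timp3 GF-ND bar falls below 0 and is not drawn. In Timp4 and Adam17 alone of the 10, all GF-HFD points lie below all GF-ND points, and mouse 11 is the highest GF-ND point in Timp2, Timp3, Mmp9, Mmp14, Mmp15 and Adam10.

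The gelatinases Mmp2 and Mmp9 cut denatured collagen and the type IV collagen of basement membranes. Mmp2 was at 9.52, 10.98, 8.24 and 10.8 CPM in GF-ND mice 9, 10, 11 and 12. In GF-HFD mice 13, 15, 16 and 19 it was at 9.10, 10.1, 11.1 and 10.97 CPM. The highest and lowest retina differed 1.35-fold, the least of the 10 genes, and mouse 11 was lowest here. The log2 fold change was 0.06 (SE 0.14, 95% interval -0.24 to 0.36, edgeR adjusted p = 0.926). Although Mmp2 is commonly made by fibroblasts, its correlation with the fibroblast markers was r = 0.325 (exact permutation p = 0.424, adjusted p = 0.661) and rho = 0.333 (exact permutation p = 0.428, adjusted p = 0.711). Without mice 16 and 19, the farthest from the median, r was -0.343.

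Mmp9, a gelatinase that neutrophils store and neurons also express, was at 15.6, 17.8, 18.6 and 10.6 CPM in GF-ND mice 9, 10, 11 and 12. In GF-HFD mice 13, 15, 16 and 19 it was at 21.3, 18.1, 16.3 and 17.7 CPM. The groups overlapped, with GF-ND mouse 12 low and GF-HFD mouse 13 high. The log2 fold change was 0.23 (SE 0.17, 95% interval -0.16 to 0.62, edgeR adjusted p = 0.737), and 0.08 without GF-ND mouse 12. Neutrophil and monocyte markers were almost absent. Of the 8, 4 passed the filter of 10 counts, Mpo had 0 counts in every library, and the sum was 0.357 to 0.675 CPM in GF-ND and 0.213 to 0.573 CPM in GF-HFD retinas.

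The membrane-type metalloproteinases Mmp14 and Mmp15, which cut matrix at the cell surface and of which the former activates pro-MMP2, had higher means in GF-HFD retinas, within the spread of the mice. Mmp14 was at 12.9, 13.8, 19.4 and 10.5 CPM in GF-ND mice 9, 10, 11 and 12. In GF-HFD mice 13, 15, 16 and 19 it was at 14.9, 14.1, 19.8 and 22.2 CPM. Apart from GF-ND mouse 11, every GF-ND retina lay below every GF-HFD retina, and the log2 fold change was 0.33 (SE 0.21, 95% interval -0.14 to 0.79, edgeR adjusted p = 0.697). Mmp15 was at 12.2, 13.5, 17.5 and 9.86 CPM in GF-ND and 16.3, 14.2, 16.6 and 16.5 CPM in GF-HFD retinas, in the same order of mice. It showed the same arrangement, with mouse 11 as the only GF-ND retina not below the GF-HFD group, and a log2 fold change of 0.26 (SE 0.17, 95% interval -0.11 to 0.63, edgeR adjusted p = 0.697). Without mouse 11 the values were 0.52 (SE 0.17, edgeR adjusted p = 0.107) for Mmp14 and 0.43 (SE 0.13, edgeR adjusted p = 0.0903) for Mmp15. Other alternatives lowered them. Mmp14 was at 0.21 without mouse 12, 0.20 without mouse 19 and 0.08 (SE 0.15) with the fibroblast marker mean as a covariate, and Mmp15 at 0.14 without mouse 12 and 0.16 (SE 0.16) with that covariate.

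The sheddases differed from each other. Adam17, the TNF-alpha converting enzyme, was lower in GF-HFD retinas by a small amount. It was at 30.8, 32.2, 29.6 and 27.1 CPM in GF-ND mice 9, 10, 11 and 12, and at 24.5, 23.5, 25.8 and 26.4 CPM in GF-HFD mice 13, 15, 16 and 19. All GF-HFD retinas lay below all GF-ND retinas, and mouse 11 lay inside the range of its group. The log2 fold change was -0.26 (SE 0.09, 95% interval -0.45 to -0.06, n = 4 each), with an unadjusted edgeR p of 0.0159, an adjusted p of 0.649 and a two-sided exact permutation p of 0.0286. Adam17 had 991 to 1308 counts a library, and the lowest has an exact 95% Poisson interval of 930.3 to 1055. Over every alternative setting the value stayed between -0.31 and -0.22. Without GF-HFD mouse 15 the unadjusted edgeR p was 0.0506, and the exact permutation p was 0.0571 without any 1 of the GF-HFD mice 13, 15, 16 and 19. With the pigment epithelium mean, high in mice 11, 16 and 19, r was -0.071 (exact permutation p = 0.860, adjusted p = 0.974) and rho -0.119 (exact permutation p = 0.793, adjusted p = 0.933), and without mice 11 and 16 r was -0.238. With the rod markers r was -0.548 (exact permutation p = 0.154, adjusted p = 0.370) and rho -0.762 (exact permutation p = 0.0368, adjusted p = 0.152), and r was -0.387 without mice 11 and 15. The part of rod RNA in the difference was not tested further.

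Adam10, the main sheddase of Notch, N-cadherin and the amyloid precursor protein, was at 72.4, 67.1, 103.4 and 63.6 CPM in GF-ND mice 9, 10, 11 and 12. The GF-HFD mice 13, 15, 16 and 19 had 77.0, 80.7, 83.1 and 86.2 CPM. Mouse 11 was again the only GF-ND retina not below the GF-HFD group. The log2 fold change was 0.09 (SE 0.14, 95% interval -0.22 to 0.41, edgeR adjusted p = 0.881), and 0.28 (SE 0.07, edgeR adjusted p = 0.0720) without mouse 11. It was 0.01 without mouse 12 and -0.008 with the fibroblast covariate.

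Across the whole fit, 0 of the 10 genes and 0 of 26900 genes tested (0%) had an adjusted p under 0.05 in edgeR, while 1985 genes had an unadjusted p under 0.05. Limma-voom called 0 genes and DESeq2 46, with 0 of the 10 among them. At an unadjusted p under 0.05 there were 2 of the 10, Timp4 and Adam17, both lower, against 7.38% of all genes in either direction and 4.53% lower. The same 2 had groups that did not overlap, against 4.83% of all genes in either direction, 2.54% lower and 2.29% higher. At a p under 0.01 with a log2 fold change beyond 1 in size, the thresholds of the study's methods, there were 0 of the 10 and 0.457% of all genes. The study also dropped genes of low expression, at a count-per-million under 10, and kept protein-coding genes only. The share here is over all genes with at least 10 counts in all. The fitted level was higher in GF-HFD for 6 of the 10 and for 46.3% of all genes, with medians of 0.03 and -0.03. Without GF-ND mouse 11, 7 of the 10 had an unadjusted p under 0.05, where 23% of all genes did: Timp2, Timp3, Mmp14, Mmp15 and Adam10 were higher (12.1% of all genes) and Timp4 and Adam17 lower (11% of all genes). Without mice 11, 16 and 19 there were 5 of the 10, Mmp9, Mmp15 and Adam10 higher (7.28% of all genes) and Timp1 and Adam17 lower (8.29% of all genes), where 15.6% of all genes passed.

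**Figure D3:**
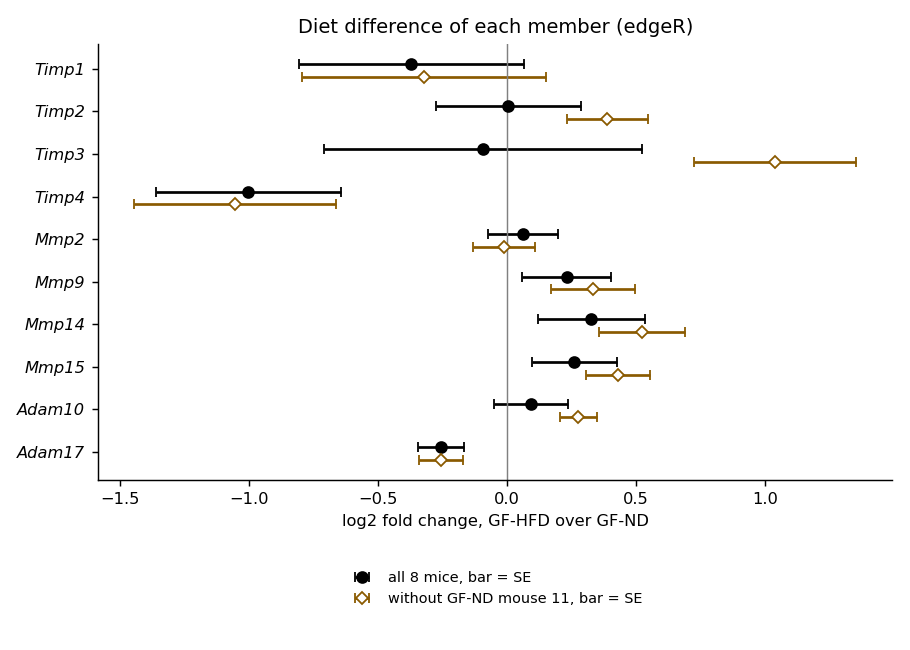
Diet difference as a log2 fold change, above 0 where GF-HFD was higher (x axis), of the 10 genes (y axis) from all 8 mice (filled) and without GF-ND mouse 11 (open), with the SE as bars. Timp3 moves from -0.09 to 1.04 when mouse 11 is left out, while Adam17 stays at -0.26 and Timp4 near -1.

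Several of the genes followed cell type marker lists over the 8 retinas, and the same gene could follow more than 1 list. Of the 120 relations of genes with marker lists, 5 had an adjusted p under 0.05 by Pearson's r, 6 by Spearman's rho, and 3 by both. Timp2 followed the 8 Mueller glia markers (r = 0.983, exact permutation p = 4.96e-05, adjusted p = 0.00446, rho = 0.976, exact permutation p = 0.000397, adjusted p = 0.0159), and r was 0.977 without mice 11 and 12. Mueller glia span the retina and support its neurons. Adam10 followed the same markers (r = 0.968, exact permutation p = 7.44e-05, adjusted p = 0.00446, rho = 0.976, exact permutation p = 0.000397, adjusted p = 0.0159), and r was 0.880 without mice 11 and 12. Mmp14 followed the 10 markers of microglia and macrophages (r = 0.931, exact permutation p = 0.000298, adjusted p = 0.00893, rho = 0.952, exact permutation p = 0.00114, adjusted p = 0.0342), with r = 0.898 without mice 12 and 19. Timp3 with Mueller glia passed by r (0.883, exact permutation p = 0.00198, adjusted p = 0.0476) but not by rho (0.857, exact permutation p = 0.0107, adjusted p = 0.0804), and r was 0.823 without mice 11 and 12. Timp2 with the 5 astrocyte markers passed by rho (1, exact permutation p = 4.96e-05, adjusted p = 0.00595) but not by r (0.874, exact permutation p = 0.00563, adjusted p = 0.0789), and r was 0.914 without mice 11 and 12. Adam10 passed by rho with astrocyte markers and with microglia markers (0.929, exact permutation p = 0.00223, adjusted p = 0.0446 for each) but not by r (0.838 and 0.734, adjusted p = 0.0845 and 0.181 from the exact permutation test), and r was 0.702 and 0.804 without the 2 farthest mice. Other lists that did not pass had r nearly as high. Mmp14 had r = 0.889 with fibroblast and 0.875 with pericyte markers (adjusted p = 0.0719 and 0.0789 from the exact permutation test). Timp2 had r = 0.901 with lens markers (adjusted p = 0.0719 from that test), and 0.427 without mice 11 and 19. A relation with 1 list thus does not single out its cell type. The values of a retina share its library and scaling factor, and the pigment epithelium and fibroblast lists were both high in mice 11, 16 and 19. The relations were not tested within a diet, each of which holds 4 mice.

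The summed Mueller glia level was 3516 to 6056 CPM in GF-ND and 4336 to 5292 CPM in GF-HFD retinas, all 8 markers being detected. The microglia and macrophage sum was 35.2 to 66.2 CPM in GF-ND and 48.0 to 74.4 CPM in GF-HFD retinas, with all 10 markers detected. In both lists the lowest retina was GF-ND mouse 12, which was also the lowest in Timp2, Mmp9, Mmp14, Mmp15 and Adam10.

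**Figure D4:**
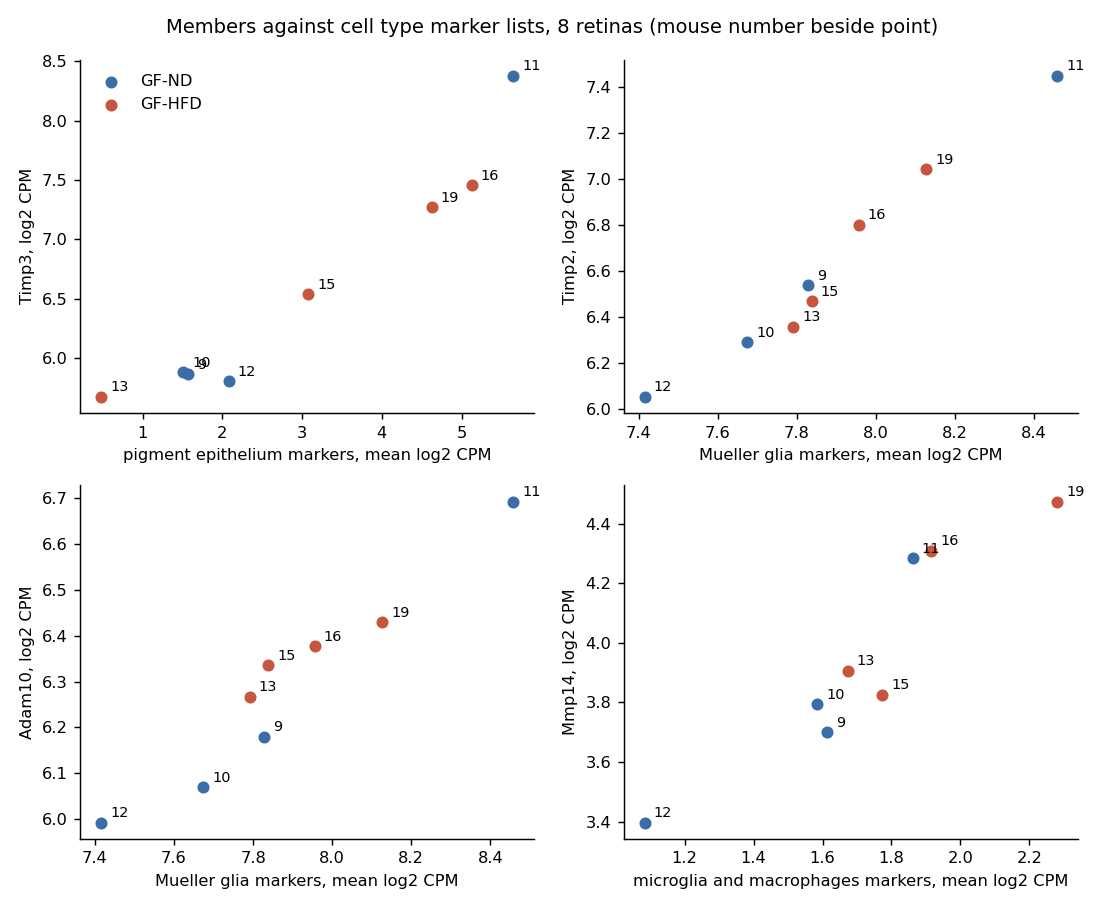
Log2 CPM (y axes) of Timp3, Timp2, Adam10 and Mmp14 against the mean log2 CPM of a marker list (x axes) in the 8 retinas, with mouse numbers and the diet as colour. Mouse 11 is at the upper right for Timp3 (8.38 at a marker mean of 5.65), Timp2 and Adam10, and mouse 12 is at the lower left for Timp2, Adam10 and Mmp14.

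Ratios of a protease to an inhibitor within a library do not depend on scaling, and are given as a description. Mmp2 counts were 0.0472 to 0.163 of Timp2 counts in GF-ND and 0.0833 to 0.114 in GF-HFD retinas, with the lowest in GF-ND mouse 11. Mmp14 counts were 0.111 to 0.177 of those of Timp2 in GF-ND and 0.160 to 0.182 in GF-HFD retinas, a difference of 0.25 in mean log2 ratio. Adam17 counts were 0.529, 0.547, 0.0890 and 0.484 of Timp3 counts in GF-ND mice 9, 10, 11 and 12, and 0.481, 0.253, 0.147 and 0.171 in GF-HFD mice 13, 15, 16 and 19. TIMP3 is the main tissue inhibitor of ADAM17. The ratio was thus lowest in mice 11, 16 and 19, the retinas with most pigment epithelium RNA, and next lowest in mouse 15. The groups overlapped through GF-ND mouse 11 alone, and mice 12 and 13 were close at 0.484 and 0.481. Adam10 over Timp3 ran from 0.311 to 1.24 in GF-ND and from 0.474 to 1.51 in GF-HFD retinas. Mmp9 over Timp1 was 29.4, 23.3, 25.2 and 15.8 in GF-ND mice 9, 10, 11 and 12, and 59.5, 95.4, 21.6 and 22.7 in GF-HFD mice 13, 15, 16 and 19, where the high values of mice 13 and 15 rest on 15 and 8 counts of Timp1.

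**Figure D5:**
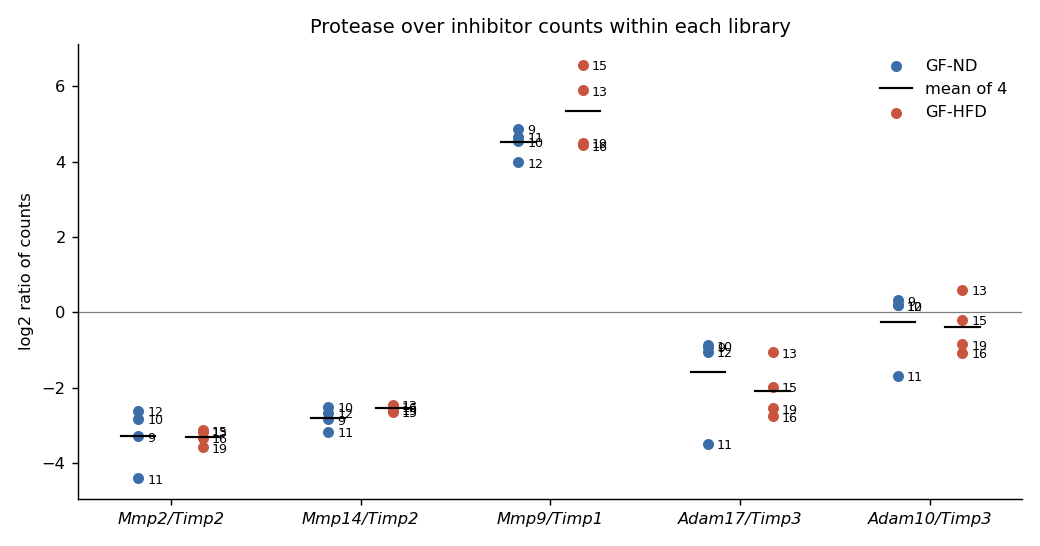
Log2 ratio of protease to inhibitor counts (y axis) in each GF-ND and GF-HFD retina for 5 pairs (x axis), with the mean of 4 as a line and mouse numbers beside the points. Adam17/Timp3 is lowest in GF-ND mouse 11 at -3.49, and Mmp9/Timp1 is highest in GF-HFD mice 15 and 13 at 6.58 and 5.90.

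The comparison was widened to related genes. Of 87 further genes of the system, 77 were tested. At an unadjusted p under 0.05, 1 was higher (2.85% of all genes) and 3 lower (4.53% of all genes), and 0 had an adjusted p under 0.05 in edgeR. Without GF-ND mouse 11, 1 of them had one, beside 421 of all 26338 genes tested. It was Adam8, which is named here after its value was seen. With all mice, the median log2 fold change of the 77 was 0.01, beside -0.03 over all genes. Among the other matrix metalloproteinases 11 of 19 were tested and 0 passed, with Mmp24 at 21.2 ± 1.37 and 21.6 ± 1.48 CPM and Mmp17 at 15.8 ± 1.60 and 16.9 ± 2.06 CPM in GF-ND and GF-HFD retinas (SD, n = 4 each). The collagenases and stromelysins Mmp1a, Mmp1b, Mmp3, Mmp8 and Mmp10 did not reach 10 counts over the 8 libraries, nor did Mmp7, Mmp20 and Mmp27.

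Among the other ADAMs 2 of 10 passed at an unadjusted p under 0.05, both lower in GF-HFD retinas, beside 4.53% of all genes. Adam11 and Adam23 lack the zinc-binding residues of an active protease and serve as adhesion proteins of neurons. Adam23 was at 51.9 to 68.6 CPM in GF-ND and 46.9 to 49.2 CPM in GF-HFD retinas, without overlap (2.54% of all genes in this direction), and its log2 fold change was -0.25 (SE 0.10, unadjusted edgeR p = 0.0285, adjusted p = 0.649, exact permutation p = 0.0286). Adam11 was at 49.5 to 91.3 and 41.5 to 53.0 CPM, with overlap, and its log2 fold change was -0.47 (SE 0.19, unadjusted edgeR p = 0.0288, adjusted p = 0.649, exact permutation p = 0.0857). The catalytic Adam9 was at 158.7 ± 11.4 and 161.2 ± 4.80 CPM (SD, n = 4 each). With 18 of 19 ADAMTS proteases tested, 1 passed, lower in GF-HFD retinas, beside 4.53% of all genes. This was Adamts19, at 0.524 to 1.24 and 0.229 to 0.549 CPM (log2 fold change -1.07, SE 0.41, unadjusted edgeR p = 0.0272, adjusted p = 0.649, exact permutation p = 0.0571). The aggrecan-cutting Adamts5 was at 50.4 ± 11.7 and 55.9 ± 6.81 CPM, and the procollagen-processing Adamts3 at 51.3 ± 11.7 and 57.9 ± 4.99 CPM. The median log2 fold change of the ADAMTS list was -0.32, beside -0.03 over all genes. Its genes were split, with 8 fitted higher and 10 lower.

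Of 22 genes for activation, trafficking and clearance, 22 were tested and 0 passed. In GF-HFD retinas 15 of them were fitted higher, beside 46.3% of all genes, with a median log2 fold change of 0.04. The matrix metalloproteinase inducer Bsg was at 537.2 ± 117.9 and 617.4 ± 17.6 CPM, and Tspan5, a tetraspanin that escorts ADAM10, at 125.1 ± 14.4 and 141.7 ± 11.8 CPM (SD, n = 4 each). Of 17 substrates of ADAM10 and ADAM17, 16 were tested and 1 passed, higher in GF-HFD retinas, beside 2.85% of all genes. The prion protein gene Prnp was at 329.5 to 377.1 CPM in GF-ND and 382.1 to 442.6 CPM in GF-HFD retinas, without overlap (2.29% of all genes in this direction), with a log2 fold change of 0.23 (SE 0.09, unadjusted edgeR p = 0.0220, adjusted p = 0.649, exact permutation p = 0.0286). App, the amyloid precursor gene, was at 419.7 ± 222.3 and 459.8 ± 107.6 CPM. Tnf, the substrate for which ADAM17 is named, had fewer than 10 counts in all and was not tested.

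For each of the 10 genes, the 3 protein-coding genes with the highest correlation of log2 CPM over the 8 retinas were looked up among those with a mean of at least 10 CPM. They are given as a description, each being the top of about 10004 values, and the points share library and scaling. Timp3 was most like Met, the receptor of hepatocyte growth factor (r = 0.998), Tmem98 (0.991) and Cd164 (0.987). Timp2 was most like Pam, a peptide-amidating enzyme (0.989), Pdpn, which is also among the fibroblast markers (0.986), and Tsc22d1 (0.985). Adam10 was most like BC004004 (0.993), Rdx, which links membrane proteins to actin (0.991), and Vat1 (0.988).

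Mmp9 was most like Map1a, a microtubule-associated protein of neurons (0.982), Igsf8 (0.966) and Por (0.963). Mmp14 was most like H2-K1, a class I histocompatibility gene (0.973), St3gal5 (0.973) and Ddost (0.971). Mmp15 was most like Bahd1 (0.982), Mcm2 (0.981) and Ubqln2 (0.976). The other 4 genes had lower values, apart from the first for Timp4. Timp4 was most like Csmd1 (0.970), Col25a1 (0.934) and Acer3 (0.928). Adam17 was most like Rnf213 (0.932), Gpld1 (0.923) and Osbpl3 (0.922). Mmp2 was most like Plekha7 (0.923), Pot1a (0.918) and Exosc2 (0.915), and Timp1 most like Mrto4 (0.922), Nipal2 (0.915) and Gga2 (0.894).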

How the data were processed

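Whole-retina RNA of 4 GF-ND and 4 GF-HFD mice was sequenced as read pairs from TruSeq libraries. The authors aligned the reads to GRCm38 with STAR 2.4.2 and deposited raw counts per gene symbol from featureCounts of Subread 1.4.6-p1, with no scaling or filter. Strand and pair settings are not given in the sources used here. Low counts (1 to 12) were mostly even, with an even-to-odd ratio of 1.91 to 2.36 per library. The Poisson intervals given here, on low and on high counts, may thus be too narrow. Whether the 2 reads of a pair were counted separately was not tested. Groups were taken from the sample titles, and no batch is labelled.

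Counts were tested in edgeR 4.0.16 (R 4.3.3) with TMM factors and the quasi-likelihood test, over genes with at least 10 counts in all, with Benjamini-Hochberg adjustment over all of them. Log2 CPM used a prior count of 2. Single genes were also tested by a two-sided exact permutation test over 70 arrangements, and correlations by an exact permutation of the pairings. Exon lengths and positions are from GENCODE vM21, while the counting used vM23. The fitting was tested on simulated data. The 10 genes, gene lists and marker lists were chosen with earlier results of these data known. From each list of related genes, the 2 with the highest level per kb and every gene with an unadjusted p under 0.05 are named. Alternatives were RLE and upper-quartile factors, library totals, no filter, 10 CPM in 4 libraries, DESeq2 1.42.0, limma-voom (limma 3.58.1), each mouse left out, mice 11, 16 and 19 left out, and a fibroblast or pigment epithelium marker mean as a covariate, the last of them added after the values were seen.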

Additional observations from a re-analysis of the deposited data

Results flagged for a closer look

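Of 54 sets of 4 retinas examined (the 10 genes, 5 ratios and 12 marker lists in each diet), 5 held a retina far from the other 3 by Dixon's criterion, where chance gives about 1 in 20. GF-ND mouse 11 accounts for 4 of them. Timp3 was at 8.38 log2 CPM in this mouse and at 5.81 to 5.88 in the other GF-ND mice. The log2 ratio of Adam17 to Timp3 was -3.49 against -1.05 to -0.87, and that of Adam10 to Timp3 was -1.69 against 0.19 to 0.32. The mean of the pigment epithelium markers was 5.65 log2 CPM against 1.51 to 2.08. The fifth was Mmp15 in GF-HFD mouse 15, at 3.84 log2 CPM against 4.03 to 4.06 in the other GF-HFD mice.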

How the results depend on the processing

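With 8 mice, 0 of the 10 genes had an adjusted p under 0.05 in the edgeR fit and under any of 18 alternatives, with the 8 genes that passed a minimum of 10 CPM under that alternative. Timp1, Timp4, Mmp9, Mmp14, Mmp15 and Adam17 kept their sign in every alternative that gave a value. The value of Timp2 was -0.0055 with RLE factors, -0.018 with library totals, -0.0088 with no filter, -0.043 at 10 CPM in 4 libraries, -0.0055 in DESeq2, -0.27 with the fibroblast covariate and -0.050 with the pigment epithelium covariate, and ran from -0.16 to 0.39 with each mouse left out (from -0.092 to 0.38 as a difference of mean log2 CPM). Timp3 was 0.25 in limma-voom and 0.33 without mice 11, 16 and 19, and ran from -0.35 to 1.04 with each mouse left out. Mmp2 was -0.11 without mice 11, 16 and 19 and ran from -0.012 to 0.12 with each mouse left out (from -0.013 to 0.12 as a difference of mean log2 CPM). Adam10 was -0.0077 with the fibroblast covariate. The cause of these changes was not tested.

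Genes called over the whole table were 46 in DESeq2 (8 higher, 38 lower), 8 with the fibroblast covariate (8 lower) and 0 to 421 with each mouse left out (0 to 61 higher, 0 to 360 lower), the upper values without GF-ND mouse 11. At 10 CPM, 1 of the 8 genes tested of the 10 had an unadjusted p under 0.05, beside 8.7% of all genes. Without mice 11, 16 and 19 there were 5 of the 10, beside 15.6% of all genes. With the fibroblast covariate there was 1 of the 10, beside 7.26%. With each mouse left out there were 1 to 7 of the 10, beside 4.62% to 23%, the 7 and the 23% without mouse 11. The related genes tested were 77 in the main fit and fewer at 10 CPM. Among them, the number higher at an unadjusted p under 0.05 was 0 with library totals, 0 at 10 CPM and 3 in DESeq2. In either direction, 7.06%, 8.7% and 8.16% of all genes passed under these settings. The number higher was 7 without mice 11, 16 and 19, beside 7.28% of all genes. It was 2 with the pigment epithelium covariate, where 7.59% of all genes passed in either direction. With each mouse left out it was 0 to 12, the 12 without mouse 11, beside 12.1% of all genes. The number lower was 5 without mice 11, 16 and 19, beside 8.29% of all genes. It was 9 with the fibroblast covariate, beside 1 higher, where 7.26% of all genes passed in either direction. With each mouse left out it was 1 to 6, the 6 without mouse 11, beside 11% of all genes. No paired analysis was possible because the diet groups share no mouse numbers. Timp1 and Timp4, at 8 to 57 counts a library, are limited by counting error.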
